A study of Mus musculus with 4 samples.

Results

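Alveolar type 2 (AT2) rich spots were the Visium spots of mouse lung in which 6 AT2 cell markers took the largest share of all transcripts. The score was the summed unique molecular identifiers (UMIs, each counting 1 captured transcript) of Lamp3, Slc34a2, Abca3, Sftpd, Etv5 and Cxcl15 over all UMIs of the spot. Among spots with at least 2000 UMIs, the highest 10% within each section were taken. This gave 464 AT2 rich spots of 4632 eligible spots, from 4933 spots in all, and 4168 other spots. The non-vaped (NV) male held 78, the NV female 44, the vaped (V) male 149 and the V female 193, and values by section follow that order throughout.

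The study placed 1 lung cryosection from each of 4 C57BL/6J mice on Visium slides, 1 male and 1 female per group. V mice breathed aerosol of Peach Ice vape juice from JUUL pens in whole-body chambers, 4 h a day on 5 days a week for 9 weeks, starting at 6 to 8 weeks of age. The titles of the V samples begin with 0_Per and the methods speak of a 0% vape group, and what the 0% refers to is not given in the sources used here. NV mice were air-exposed controls of the same strain, and no genetic modification is given for either group. Lungs of both groups were inflated before freezing, and sections were cut at 10 µm. Each group is 2 animals of different sex, so a sex difference and a difference between mice of one group cannot be told apart.

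AT2 cells are the cuboidal secretory cells of the alveolus. They make pulmonary surfactant, store its lipids and proteins in lamellar bodies, and release it to lower surface tension at the air-liquid interface. They also secrete host defence proteins and act as progenitors of the flat type 1 cells that line most of the gas exchange surface. A spot covers several cells, so an AT2 rich spot remains a mixture. In such sums, more AT2 cells in a spot and more RNA per AT2 cell cannot be told apart.

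Every score that chose the spots was measured on the same libraries, so the levels of the 6 markers are given as a description. The median score of AT2 rich spots was 6620, 6705, 6170 and 5756 marker UMIs per 1000000 UMIs, and that of other spots was 3515, 3197, 3386 and 2815. The last spot inside scored 6003, 6146, 5502 and 4972 on that scale, and the first outside 5993, 6111, 5501 and 4971, so the limit ran between spots of nearly equal score. The choice also depended on the genes used. Ranking spots by Sftpa1, Sftpb and Sftpc in place of the 6 markers shared 53.8%, 56.8%, 49.7% and 59.6% of the AT2 rich spots. Ranking by 29 other AT2 genes, the fatty acid synthesis genes Fasn and Scd1 among them, shared 50%, 15.9%, 51.0% and 31.6%. A random choice of as many spots would share 10% on average. The AT2 rich spots held a median of 78, 78, 42 and 52 marker UMIs, against 31, 30, 21 and 30 in other spots. The V male stood lowest on this measure in both kinds of spot.

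Median depth differed between spot kinds and between sections. AT2 rich spots held a median of 12447, 10860, 6673 and 8818 UMIs, against 9902, 11092, 6467 and 12696 in other spots. The V female's AT2 rich spots were thus shallower than its other spots, while the NV male's were deeper. Spots under 5000 UMIs made up 34.9% of the AT2 rich spots of the V male and 1.28% of those of the NV male. Sections share barcode sequences by the design of the slide, and 4 to 13 AT2 rich positions recurred between any pair of sections. A spot position is not a cell, and no spot was left out for it.

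The region sampled also differed. A parenchyma filter kept spots whose summed Hopx, Ager, Tmem100 and Calcrl, genes of gas exchange epithelium and endothelium, reached 50% of their mean level. It kept 100%, 97.7%, 100% and 99.5% of AT2 rich spots, but 77.5%, 70.2%, 99.9% and 76.6% of other spots. The V male's section therefore had almost no spots outside the parenchyma, whereas the other 3 sections held many. For this reason many results are also given with AT2 rich spots chosen anew among parenchyma spots alone. That choice gave 62, 32, 149 and 152 spots. Gene values for V against NV are given without this filter.

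Among the 6 markers, Slc34a2, the sodium-phosphate cotransporter of the AT2 apical membrane, stood furthest above other spots in all 4 sections. It was at 1489, 1779, 1666 and 1681 UMIs per 1000000 UMIs (CPM) in AT2 rich spots and at 655, 552, 864 and 557 CPM in other spots. Cxcl15, a lung epithelial chemokine, was the most abundant marker and gave 32.3% to 44.0% of the marker UMIs in AT2 rich spots. It was at 2996, 2747, 2032 and 1985 CPM against 1379, 923, 1118 and 672 CPM. Both NV sections were above both V sections in Cxcl15 in the AT2 rich spots, which this marker helped to choose. The score limit was also lower in both V sections, and Cxcl15 in other spots overlapped between the groups.

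Abca3, the lipid transporter of the lamellar body, was at 382, 376, 377 and 345 CPM in AT2 rich spots and at 209, 172, 230 and 155 CPM in other spots. Lamp3, a lamellar body membrane protein, was at 577, 675, 528 and 579 CPM against 294, 249, 315 and 214 CPM. Sftpd, the collectin surfactant protein D, was at 1054, 1052, 1448 and 1116 CPM against 527, 375, 830 and 380 CPM. The V male was highest in Sftpd in both kinds of spot. Etv5, a transcription factor that maintains AT2 identity, was the lowest of the 6 at 316, 276, 245 and 241 CPM against 177, 105, 144 and 96.3 CPM.

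**Figure D1:**
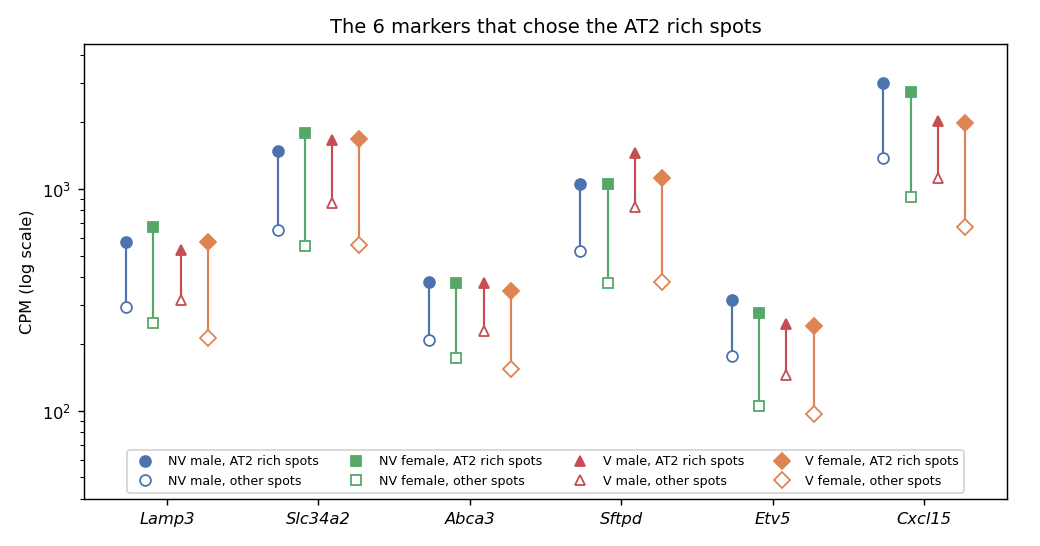
Summed level (CPM, log scale) of the 6 markers in AT2 rich spots (filled) and other spots (open) of each section. The gap is smallest in the V male for all 6 markers, whose summed level there was 1.80 times that of other spots.

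The summed markers of AT2 rich spots stood 2.10, 2.91, 1.80 and 2.87 times above other spots, with a geometric mean of 2.37 (SD over sections 0.555, n = 4). When each marker was measured in spots chosen by the other 5, its ratio ran from 1.40 to 2.74 over markers and sections. Within the parenchyma the ratio lay between 1.68 and 1.90, lower than against all other spots in 3 sections and 1.80 in the V male as before.

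Genes outside the rule were compared between AT2 rich and other spots by summing UMIs per section and fitting 8 sums with section as a block (edgeR quasi-likelihood test). A gene was called where its log2 fold change exceeded 0.25 in either direction and its Benjamini-Hochberg adjusted p stayed below 0.05. Of 12926 genes tested, 196 were higher, which is 1.52%, and 706 were lower, which is 5.46%. Within parenchyma spots, 134 of 12069 genes were higher (1.11%) and only 25 were lower (0.207%). Higher calls were largely shared, with 118 genes in both fits, which is 60.2% of the first list and 88.1% of the second. Lower calls were mostly lost, with 14 genes in both, which is 1.98% and 56.0%. Single sections weighed on these counts, with 430 higher and 1190 lower genes when the V male was left out and 57 and 169 when the V female was.

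The higher genes included the surfactant protein genes, which were abundant but did not have the highest fold changes. Surfactant protein C, Sftpc, reached 45652, 39497, 50152 and 40416 CPM in AT2 rich spots, and 24768, 15548, 34453 and 16245 CPM in other spots. Every section's AT2 rich spots exceeded the other spots of all 4 sections. Its log2 fold change was 0.93 ± 0.10 (SE, n = 4 sections, edgeR adjusted p = 8.0e-05), and 0.61 ± 0.03 within the parenchyma. Sftpc alone thus made up several percent of all UMIs in AT2 rich spots.

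Sftpb, the hydrophobic protein needed to spread surfactant lipid, was at 5546, 4705, 5473 and 4864 CPM against 3160, 1915, 3793 and 1946 CPM (log2 fold change 0.90 ± 0.11). Sftpa1, a collectin of the surfactant, was at 4991, 5147, 6328 and 5459 CPM against 2669, 2137, 4406 and 2483 CPM (0.87 ± 0.10). For both, AT2 rich spots lay above other spots in all 4 sections and the groups of sums did not overlap. All 3 surfactant genes outside the rule were higher in both fits, and within the parenchyma Sftpb and Sftpa1 rose by 0.61 ± 0.04 and 0.57 ± 0.04. Beside this, the median log2 fold change of all genes was -0.01 in either fit.

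**Figure D2:**
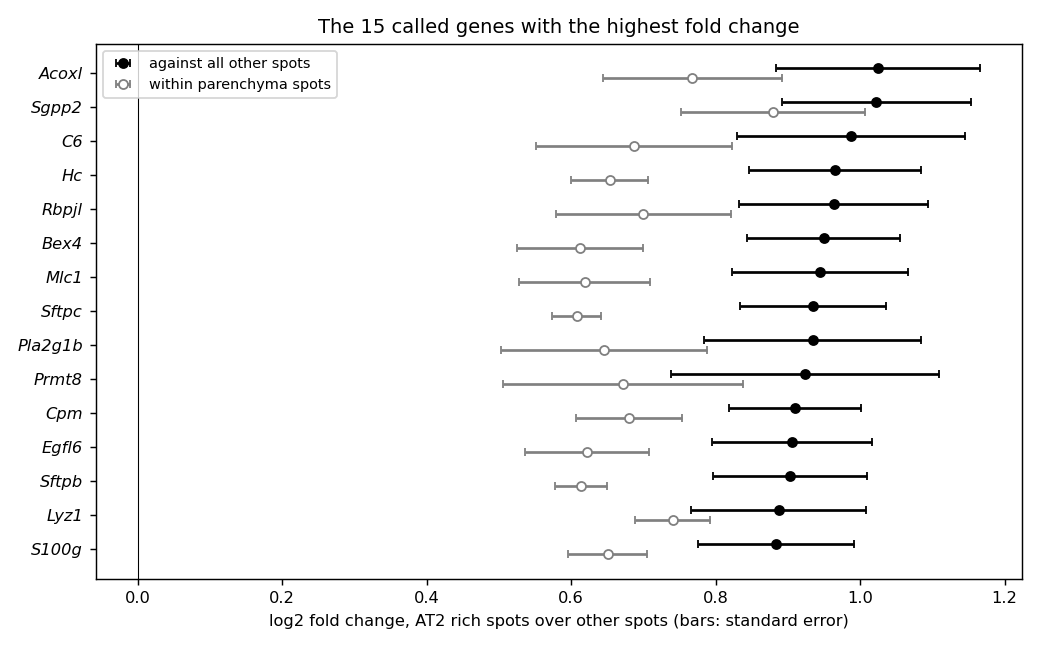
Log2 fold change (± SE) of the 15 called genes with the highest values, for AT2 rich spots against all other spots (filled) and within parenchyma spots (open), n = 4 sections. All 15 stay above 0 in the parenchyma, between 0.61 and 0.88.

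Promoter sequence is shown for Sftpa1 and Sftpb, the surfactant protein genes with an entry in the RefSeq promoter table, because surfactant promoters are textbook targets of the lung homeobox factor Nkx2-1. Sftpc, Sftpd and Napsa had no entry. Each window is the 250 bases before the RefSeq start on the plus strand (GRCm38.p6), chr14:41131538-41131787 for Sftpa1 and chr6:72304360-72304609 for Sftpb. The GENCODE annotation starts Sftpa1 at 41131782, inside its window, and distances are counted from the RefSeq start. Capitals mark the letters CAAGTG or CTCAAG, read on both strands, which are cores of NKX2-type sites and which can overlap each other.
Sftpa1: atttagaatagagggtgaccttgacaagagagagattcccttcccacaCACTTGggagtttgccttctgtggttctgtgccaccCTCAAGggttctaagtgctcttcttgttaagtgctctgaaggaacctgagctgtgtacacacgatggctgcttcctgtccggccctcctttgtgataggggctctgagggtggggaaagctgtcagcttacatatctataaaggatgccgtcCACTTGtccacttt
Sftpb: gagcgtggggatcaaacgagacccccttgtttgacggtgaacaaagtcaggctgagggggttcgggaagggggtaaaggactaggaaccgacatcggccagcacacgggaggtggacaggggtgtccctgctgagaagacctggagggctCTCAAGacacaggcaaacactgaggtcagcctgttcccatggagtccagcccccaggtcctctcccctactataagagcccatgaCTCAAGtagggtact

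Sftpa1 held 3 such matches, which begin 202, 166 and 14 bases before the start, and Sftpb held 2, at 100 and 15 bases. Neither window held the forkhead letters TGTTTAC or the C/EBP letters TTGCNNAA. Of the 118 genes higher in both fits, 103 had a promoter in the RefSeq table, with 120 windows. CAAGTG was in 16.7% of these, against 9.65% of 13005 windows of the genes tested and 11.6% of 32851 windows of all genes. CTCAAG was in 10.8%, 12.3% and 13.3%, TGTTTAC in 1.67%, 2.19% and 3.17%, and TTGCNNAA in 15%, 7.76% and 9.56%. These are matches of letters and were not tested.

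By the chosen rule, the 15 highest called genes at a mean of at least 20 CPM were Acoxl, Sgpp2, C6, Hc, Rbpjl, Bex4, Mlc1, Sftpc, Pla2g1b, Prmt8, Cpm, Egfl6, Sftpb, Lyz1 and S100g. Their log2 fold changes ran from 0.88 to 1.03. Acoxl, an acyl-CoA oxidase relative, was at 45.9, 61.5, 29.96 and 49.2 CPM against 23.98, 24.04, 21.6 and 17.6 CPM (1.03 ± 0.14). Sgpp2, a sphingosine-1-phosphate phosphatase, was at 45.9, 63.2, 42.1 and 33.2 CPM against 21.4, 21.0, 25.6 and 14.8 CPM (1.02 ± 0.13). In neither gene did AT2 rich and other spots overlap across sections.

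A pair of complement genes was in this group. Hc encodes complement C5 and was at 332, 517, 287 and 343 CPM against 194, 179, 189 and 139 CPM (0.97 ± 0.12). C6, a component of the membrane attack complex, was at 36.5, 53.2, 29.2 and 36.6 CPM against 21.6, 17.1, 20.6 and 14.04 CPM (0.99 ± 0.16). The NV female was highest in both. The secreted phospholipase Pla2g1b had a log2 fold change of 0.93 ± 0.15, the membrane peptidase Cpm 0.91 ± 0.09 and the calcium-binding protein S100g 0.88 ± 0.11.

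The host defence list held Lyz1, Lyz2, Hc, C3, Lcn2, Sftpa1, Chil1, Slpi, Wfdc2, Il33, Ccl9 and Cxcl5, the last too low to test. Of the 11 tested, 8 were higher and none was lower, in both fits, with a median log2 fold change of 0.80 and of 0.55 within the parenchyma. Lyz1, a lysozyme gene whose reads may be shared with its close copy Lyz2, was at 580, 374, 1107 and 1002 CPM against 308, 215, 733 and 343 CPM (0.89 ± 0.12). Chil1, a chitinase-like secreted protein, was at 896, 891, 1019 and 912 CPM against 476, 396, 709 and 394 CPM (0.87 ± 0.10). Lcn2, the iron-siderophore binding lipocalin, was at 258, 324, 423 and 245 CPM against 137, 142, 284 and 111 CPM (0.86 ± 0.10). Chil1 separated the 2 kinds of spot in every section, while the V male's other spots were above the NV male's and V female's AT2 rich spots in Lcn2.

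Of 18 lamellar body and surfactant processing genes, the 3 surfactant genes among them, 10 were higher and 1 was lower, with a median of 0.47. Within the parenchyma 8 were higher and none was lower. Besides the surfactant genes, the lipid remodelling enzyme Lpcat1 (0.83 ± 0.09) and the proprotein protease Napsa (0.80 ± 0.10) were among the higher genes. The 1 lower gene was Acp5, an acid phosphatase of macrophages and osteoclasts, at 13.1, 36.6, 11.3 and 49.2 CPM against 32.5, 103, 16.8 and 94.5 CPM. It was not called within the parenchyma (-0.36 ± 0.14, edgeR adjusted p = 0.29).

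A list of 29 other AT2 genes had 27 tested members, of which 21 were higher and none was lower. Within the parenchyma 20 were higher and none lower, with medians of 0.77 and 0.59. The chloride transporter Slc26a9 had the highest value of the list, 33.7, 26.6, 13.8 and 22.4 CPM against 14.4, 7.43, 8.36 and 9.36 CPM (1.13 ± 0.17). It was below 20 CPM on average and so outside the 15 genes above. The 6 members not called were Cldn18, Cd36, Cd74, Cat, Fasn and Scd1.

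Cholesterol genes gave like values in both fits. Among 15 tested, 6 were higher and none lower, with 5 higher within the parenchyma, and the median was 0.35 and 0.36. Idi1, an isomerase of the mevalonate pathway, was at 64.6, 94.8, 71.3 and 69.8 CPM against 39.8, 50.0, 46.5 and 39.2 CPM (0.68 ± 0.09).

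Of 16 fatty acid synthesis genes, 2 were higher and 3 were lower against all other spots, while 5 were higher and none lower within the parenchyma. Elovl1, which elongates very long acyl chains, was at 904, 823, 484 and 692 CPM against 518, 334, 375 and 309 CPM (0.82 ± 0.11), and 0.57 ± 0.05 within the parenchyma. The elongase Elovl6 was at 6.56, 54.9, 5.67 and 99.2 CPM against 11.3, 145, 4.56 and 230 CPM (-1.33 ± 0.16), but at -0.08 ± 0.11 within the parenchyma. Srebf1, the lipogenic transcription factor, went from -0.02 ± 0.15 to 0.34 ± 0.09 when spots were limited to the parenchyma, and was called there. Summed over other spots, both females were high in Elovl6 and in adipocyte markers. The adipocyte sums were 2397 CPM in the NV female and 3604 CPM in the V female against 721 and 69.3 CPM in the males. Whether single spots held both was not examined. The part of these adipocyte transcripts in the result was not tested beyond the parenchyma values given.

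Of 12 alveolar epithelial transcription factors tested, 3 were higher and none was lower. Elf5, an epithelial ETS factor, was at 11.2, 19.95, 8.10 and 11.6 CPM against 7.02, 3.48, 5.6 and 5.40 CPM (1.0 ± 0.27). Tfcp2l1, a grainyhead-family factor, had 0.73 ± 0.16 and Id2, an inhibitor of helix-loop-helix factors, 0.40 ± 0.10. Only Tfcp2l1 and Id2 were called within the parenchyma.

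Markers of other alveolar cell types were mostly not called. Of 16 type 1 cell genes, 1 was higher, Aqp5, a water channel, at 337, 309, 293 and 422 CPM against 242, 180, 283 and 256 CPM (0.42 ± 0.10). Within the parenchyma Aqp5 was not called, and of the 14 genes tested there Igfbp2, a binding protein for insulin-like growth factors, was lower (-0.36 ± 0.06, edgeR adjusted p = 5.2e-05). The summed type 1 list was at 1.08, 1.5, 0.881 and 1.42 times all other spots, but at 0.866, 0.903, 0.881 and 0.937 times other parenchyma spots. This sum includes Hopx and Ager, which the parenchyma filter also used. No gene was called among 9 general capillary, 9 aerocyte or 11 alveolar macrophage genes in either fit. The summed general capillary list was at 1.13, 1.32, 0.918 and 1.33 times all other spots and the aerocyte list at 1.04, 1.45, 0.893 and 1.36 times, and within the parenchyma both lists stood between 0.837 and 0.960 times. Of 8 MHC class II genes none was called, with Cd74 at 2314, 1845, 1252 and 2112 CPM against 1775, 1358, 1219 and 1302 CPM (0.30 ± 0.09, edgeR adjusted p = 0.073).

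Of 12 transitional epithelium genes, associated with AT2 cells turning into type 1 cells, Lcn2 and the keratin Krt8 (0.36 ± 0.10) were higher and the chaperone Clu (-0.55 ± 0.13) was lower. Within the parenchyma 2 were higher and none lower. Among 12 immediate-early and 8 interstitial macrophage and monocyte genes no gene was called. Neutrophil, T and natural killer cell, proliferation, red blood cell and secretory stress lists had no called gene in either fit.

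**Figure D3:**
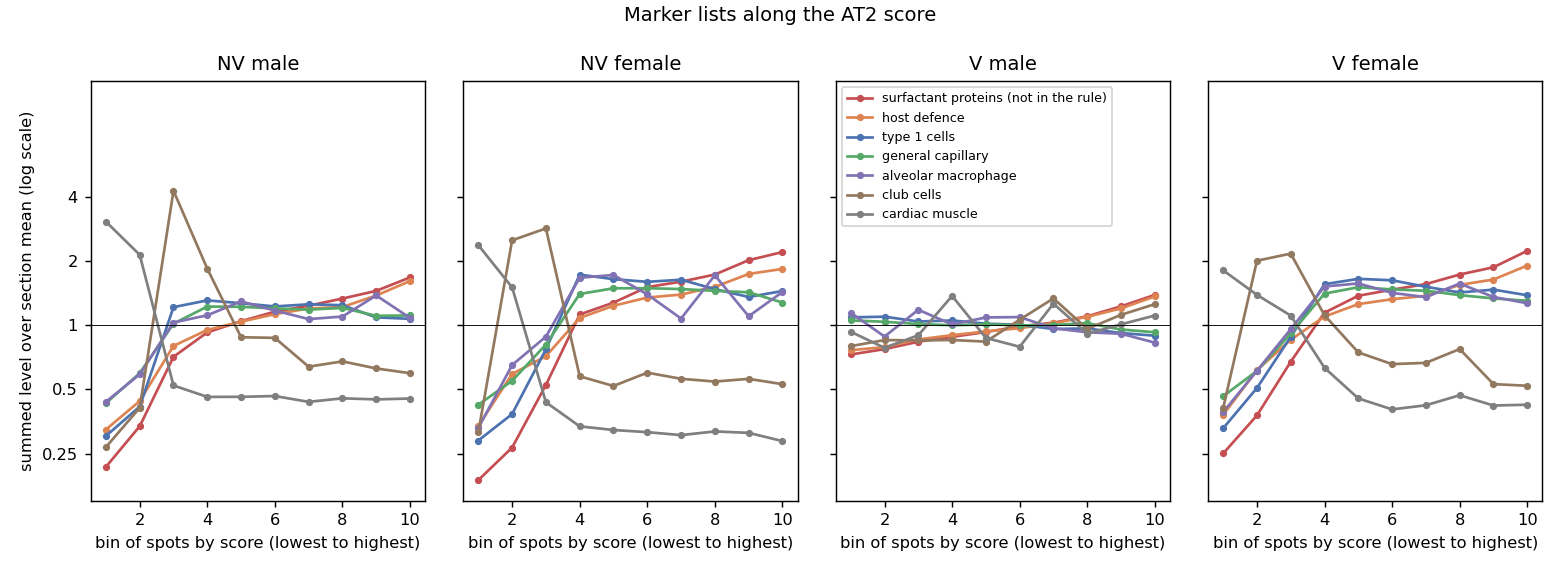
Summed level of 7 gene lists (log scale, relative to the section mean) in 10 equal bins of spots ordered by the AT2 score, per section. Surfactant genes outside the rule climb to the highest bin in all 4 sections (1.68, 2.21, 1.39 and 2.23 times the mean), while type 1 and capillary lists level off or fall.

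The bins along the score showed where the other tissues lay. Cardiac muscle transcripts were highest in the lowest bin of both NV sections and the V female's, at 3.06, 2.38 and 1.81 times the section mean. Club cell transcripts peaked in the third bin of these sections, at 4.28, 2.85 and 2.17 times. In the V male, cardiac transcripts showed no such peak and surfactant transcripts ran from 0.73 to 1.39 times the mean.

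Of the genes the study selected on these samples, 2 of 6 xenobiotic genes (Cyp2a5, Cyp2f2) and 5 of 16 genes that it placed under lipid, drug or hydrogen peroxide metabolism or endothelial apoptosis (Cidea, Thrsp, Gpd1, Agpat2, Acadvl) were lower and none was higher. Within the parenchyma only Cyp2a5 and Cyp2f2 were lower. The Cyp2a5 counts in AT2 rich spots came mostly from the V female, by the values given later.

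The lowest 10 genes under the same rule were Car3, Tmem45b, Cyp2a5, Pck1, Myl1, Myoz2, Ttn, Thrsp, Mb and Cox7a1, several of them genes of muscle or fat. Car3, a carbonic anhydrase of muscle and fat, was at 86.2, 416, 4.05 and 364 CPM against 380, 2169, 6.55 and 1472 CPM (-2.26 ± 0.14). Mb, myoglobin, was at 679, 432, 0 and 329 CPM against 1764, 1631, 0.57 and 946 CPM (-1.73 ± 0.13). The V male was near 0 in both kinds of spot, and its 0 UMIs of Mb in AT2 rich spots allow up to 2.43 CPM. Within the parenchyma only Car3 (-0.35 ± 0.07) and Cyp2a5 (-0.68 ± 0.11) remained called. Cyp2a5 was low in the AT2 rich spots of every section but the V female's, by the values given later.

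Lower calls by list fell on muscle, fat, lipid handling, mitochondrial, connective tissue and airway genes. Lower were 7 of 8 cardiac muscle genes, 6 of 6 adipocyte genes, 8 of 14 lipid handling genes, 11 of 13 mitochondrially encoded genes, 3 of 8 connective tissue fibroblast genes and 2 of 7 ciliated cell genes. In the parenchyma the counts were 0 of 8, 0 of 6, 1 of 14 (Plin2, a lipid droplet coat protein), 0 of 13, 0 of 8 and 0 of 5. Mitochondrial transcripts took 7.90%, 5.37%, 5.35% and 5.90% of UMIs in AT2 rich spots and 11.3%, 10.1%, 5.05% and 10.7% in other spots. In the V male, whose other spots were parenchyma, the mitochondrial list stood at 1.06 times other spots.

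Of 6 club cell genes, 4 were lower in both fits. The summed list was at 0.566, 0.508, 1.29 and 0.502 times all other spots, and at 0.652, 1.01, 1.29 and 0.640 times other parenchyma spots, so it was not below them in the NV female or the V male. Scgb3a2, an airway secretoglobin, was at 99.3, 38.2, 3.24 and 380 CPM against 215, 90.6, 3.13 and 1229 CPM (-1.5 ± 0.16, and -0.67 ± 0.08 within the parenchyma). Scgb1a1, the main club cell secretoglobin, was at 7426, 1092, 324 and 6414 CPM against 13123, 2210, 251 and 11911 CPM (-0.70 ± 0.19, and -0.36 ± 0.07). Scgb3a1 and the airway cytochrome Cyp2f2 were also lower in both fits. The V male was the exception, with more Scgb1a1 and Cyp2f2 in AT2 rich than in other spots. Its Scgb3a2 was nearly equal and close to 0 in both kinds of spot.

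Smooth muscle genes were lower for 4 of 9 members against all other spots, and for Acta2 (-0.37 ± 0.09) and Tagln (-0.40 ± 0.09) within the parenchyma, while Postn was the 1 higher member against all other spots (0.39). Among B and plasma cell genes Jchain (-1.30 ± 0.13) and Igkc (-0.55 ± 0.12) were lower, and within the parenchyma only Igha, the constant gene of IgA, was called (-0.44 ± 0.11). Lpl and Plin2 of the alveolar fibroblast list were lower, as was Lrrn4 of 6 mesothelial genes. Some immunoglobulin constant genes are close in sequence, and sharing of reads was not examined for those named here.

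**Figure D4:**
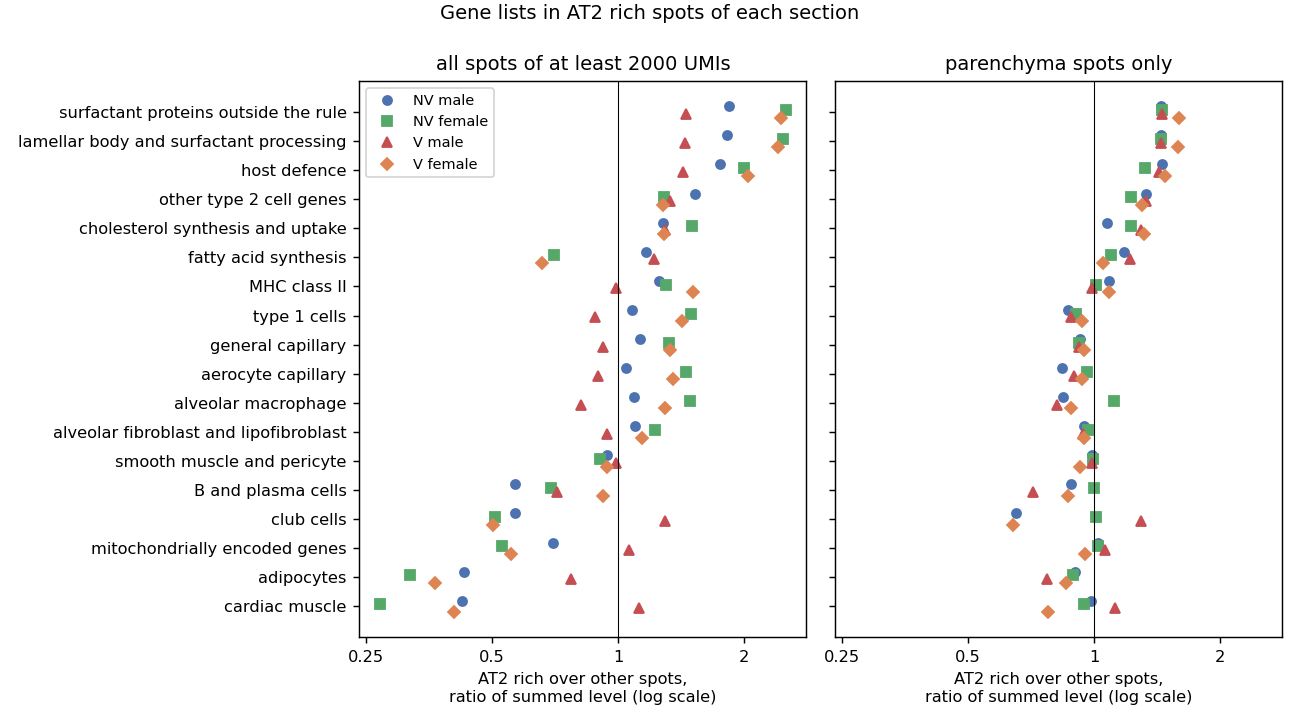
Ratio of summed level (log scale) in AT2 rich over other spots for 18 gene lists, one point per section, for all spots (left) and parenchyma spots (right). Surfactant genes keep ratios of 1.45 to 1.60 in the parenchyma, where the mitochondrial list lies between 0.952 and 1.06 and the cardiac list between 0.776, in the V female, and 1.12.

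V and NV mice were then compared within AT2 rich spots, 2 sums against 2. No gene of 10505 was called by edgeR (0.0%). An unadjusted p below 0.05 was held by 316, fewer than this threshold passes on average when no gene differs. The smallest adjusted p was near 1. DESeq2 called 3 genes (0.0286%), all lower in V. Leaving out the V male or the V female, so that a lone V mouse was assumed to vary like the NV mice, gave 132 or 367 called genes in edgeR. A single gene tested by exact permutation of 2 against 2 cannot go below p = 0.33. Values are therefore given for each mouse, with sex, section region and depth differing within groups.

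Surfactant genes were close between groups. The log2 difference of V over NV was 0.09 ± 0.14 for Sftpc, 0.02 ± 0.17 for Sftpb and 0.22 ± 0.15 for Sftpa1 (edgeR adjusted p near 1 for all 3), and only Sftpa1 had both V mice above both NV mice. Over the 18 lamellar body genes the median was 0.01, over 27 other AT2 genes -0.04 and over all genes 0.01. Both V mice were above both NV mice for 2 of the lamellar body genes and 2 of the other AT2 genes, and below for 2 and 5. Over all genes 15.3% were above and 16.1% below.

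The gene of AT2 secretion that stood furthest apart, chosen after its values were seen, was Lyz1. It was at 580 and 374 CPM in the NV mice and 1107 and 1002 CPM in the V mice, a log2 difference of 1.14 ± 0.27 (edgeR unadjusted p = 0.0044, not called). Both V mice were above both NV mice. The other spots of both V mice were likewise above those of both NV mice, by the values given earlier. Lyz1 reads may be shared with Lyz2.

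The 5 genes at 20 CPM or more with the smallest unadjusted p, none of them called by edgeR, were Hspa1a, Nr4a1, Thbs1, Phlda1 and Adamts1, all lower in V. Hspa1a, an inducible heat shock protein, was at 79.6 and 120 CPM in NV and 4.05 and 15.1 CPM in V (-3.19 ± 0.48). Nr4a1, an immediate-early nuclear receptor, was at 241 and 106 CPM in NV and 21.9 and 31.9 CPM in V (-2.68 ± 0.44). Both were called by DESeq2, with adjusted p of 3.6e-05 and 4.7e-05. Other spots were also lower in V, at 76.0 and 95.1 against 7.88 and 19.8 CPM for Hspa1a.

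Ighm, the constant gene of IgM, was the other gene called by DESeq2 (adjusted p = 0.026), at 498 and 525 CPM in NV and 111 and 218 CPM in V. Thbs1, a matrix glycoprotein, was at 169 and 219 CPM in NV and 85.8 and 87.1 CPM in V (-1.15 ± 0.22). Phlda1 and the protease Adamts1 had log2 differences of -1.11 ± 0.22 and -1.27 ± 0.25. In all of these both V mice lay below both NV mice.

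Of 11 immediate-early genes tested, 7 had both V mice below both NV mice, and the list's median was -0.68. Of 16 type 1 cell genes, 10 had both V mice above both NV mice, with a median of 0.38 and none called. Ager, the receptor for advanced glycation end products and a type 1 cell gene, was at 1747 and 1676 CPM in NV and 2748 and 2428 CPM in V (0.60 ± 0.17). Of 10 alveolar macrophage genes 6 were above in both V mice. Of 9 B and plasma cell genes 8 had both V mice below both NV mice (median -0.95), as had 6 of 8 cardiac muscle genes (-1.5) and 4 of 7 interstitial macrophage and monocyte genes (-0.62). Over all genes tested, 15.3% had both V mice above both NV mice and 16.1% below. In other parenchyma spots the sum of each of these lists also separated V from NV mice, in the same direction. The type 1 list was there at 7496 and 7311 CPM in NV and 10747 and 8147 CPM in V. The immediate-early list was at 1910 and 1531 CPM in NV and 1279 and 965 CPM in V. These lists describe 2 mice a group and were not tested as lists.

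**Figure D5:**
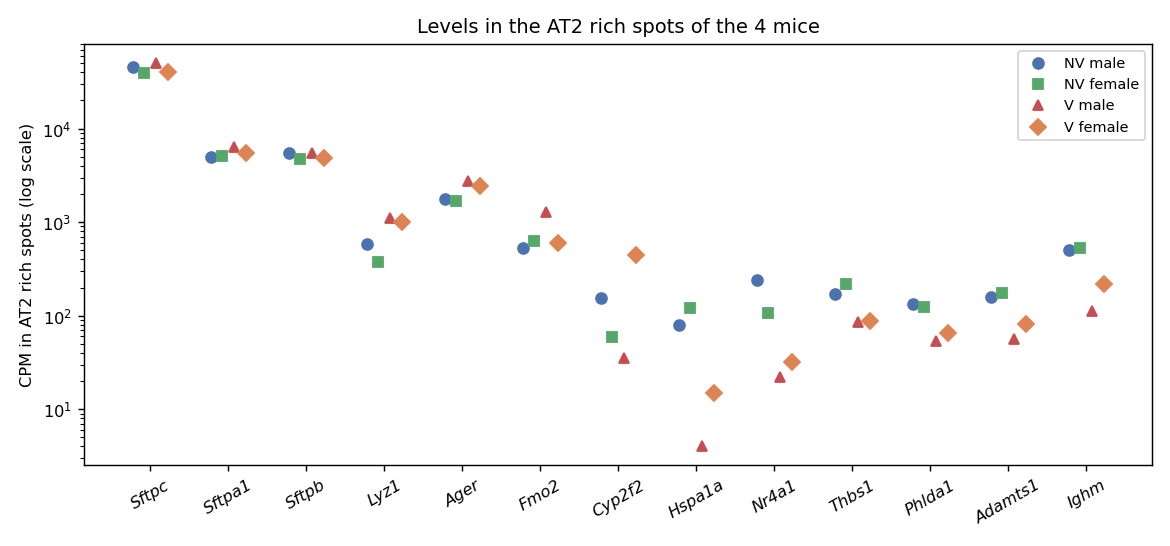
Level of 13 genes (CPM, log scale) in the AT2 rich spots of the 4 mice. Sftpc, Sftpa1 and Sftpb lie together in all mice, Lyz1 and Ager are above in both V mice, and Hspa1a, Nr4a1, Thbs1, Phlda1, Adamts1 and Ighm are below.

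The xenobiotic response genes that the study selected on these samples, so not independent evidence, were mostly at higher values in V. Of the 5 tested in AT2 rich spots none was called, and 3 had both V mice above both NV mice, as had 15.3% of all genes. Cyp2b10, a cytochrome P450, was at 289 and 301 CPM in NV and 747 and 369 CPM in V (0.92 ± 0.34). Gsto1, a glutathione transferase, was at 64.6 and 76.5 CPM in NV and 89.1 and 168 CPM in V (0.90 ± 0.34). Gsta3 had 0.78 ± 0.36 and the flavin monooxygenase Fmo2 0.72 ± 0.36. In other parenchyma spots the sum of this list was also higher in V. It was there at 1417 and 1345 CPM in NV and 2700 and 2230 CPM in V.

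Cyp2f2 split by mouse, at 156 and 59.9 CPM in NV and 35.6 and 446 CPM in V (1.16 ± 1.01). The summed club cell markers of the same spots, Cyp2f2 among them, were at 7741, 1282, 405 and 7860 CPM, with none at 0. The NV male and the V female were alike in that sum, most of which was Scgb1a1, and apart in Cyp2f2. By the values given earlier, Scgb1a1 was higher in the NV male and Scgb3a2 in the V female. The part of club cell transcripts in the result was not tested. Cyp2a5 was too low to be tested there, at 5.62, 4.99, 0.81 and 119 CPM.

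The study named 16 genes on these samples under metabolism or endothelial apoptosis, also not independent evidence. Of these, 14 were tested and none was called. Values were above 0 for all 14. Both V mice were above both NV mice for 3 of them, against 15.3% of all genes tested. Ager, given above, was one of the study's endothelial apoptosis genes. Prdx6, a peroxiredoxin with phospholipase activity, was at 749 and 770 CPM in NV and 1435 and 775 CPM in V (0.54 ± 0.30). Cyp4b1 was at 388 and 467 CPM in NV and 879 and 498 CPM in V (0.69 ± 0.30). For both the V male stood apart and the V female was close to the NV mice. Hbb-bt, a beta globin, had a log2 difference of 0.13 ± 0.25. In other parenchyma spots the sum of the 16 genes was likewise higher in V, at 5506 and 6928 CPM in NV and 10484 and 8626 CPM in V.

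Whether the contrast of AT2 rich and other spots differed between V and NV was tested by the interaction of both terms over the 8 sums. No gene of 12926 was called by edgeR (0.0%), and none by DESeq2. At an unadjusted p below 0.05 the tools listed 279 and 32 genes, both fewer than this threshold passes on average when no gene differs. For the surfactant genes the difference of the contrast, V minus NV, was -0.14 ± 0.22 for Sftpc, -0.09 ± 0.24 for Sftpb and -0.21 ± 0.21 for Sftpa1, each about 1 SE or less from 0. The 5 genes at 20 CPM or more with the smallest unadjusted p were Iglc2, Ighm, Rapgef6, Aox3 and Tmc4, none called.

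Iglc2, an immunoglobulin light chain constant gene, was at 51.5, 219, 25.9 and 47.0 CPM in AT2 rich spots and at 89.0, 738, 20.04 and 34.2 CPM in other spots. AT2 rich spots were lower in both NV mice and higher in both V mice, a difference of 1.80 ± 0.32. Aox3, an aldehyde oxidase, was at 109, 103, 126 and 84.5 CPM against 53.4, 40.8, 93.5 and 62.2 CPM, a difference of -0.69 ± 0.20. Its AT2 rich spots were higher in all 4 sections.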

How the data were processed

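The authors aligned Visium reads with SpaceRanger 1.2.2 to the 10x mouse reference (mm10, which is GRCm38) and deposited UMI counts per gene and tissue spot, without the Seurat 4.0.3 steps of their methods. Sections held 6957392 to 34308556 UMIs in 473 to 2053 spots, and 61, 37, 76 and 127 spots with fewer than 2000 UMIs were left out. The members and gene lists were chosen with earlier results of these data known.

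Spots are not replicates, so UMIs were summed per section and spot kind and compared in edgeR 4.0.16 (R 4.3.3, TMM, filterByExpr), with section as a block for AT2 rich against other spots and for the interaction, and without a block for V against NV. The 6 rule markers were not tested, nor the 4 filter genes within the parenchyma. SEs are the fold change over the root of F, and CPM are UMIs per 1000000 summed UMIs. Scripts were tested on simulated counts. Alternatives were DESeq2 1.42.0, limma 3.58.1 on log2(mean CPM + 1), other scalings, filters and score limits, thinned spots, spots chosen on one random split of the UMIs and measured on the rest, parenchyma spots and each section left out.

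The text names the 6 markers, called genes of each list, the 15 highest and 10 lowest called genes of at least 20 CPM with one direction in 4 sections, the 5 smallest p where fewer than 5 genes were called, and genes the study named. Further genes were chosen after their values were seen. Each group is 2 mice with 1 section each, so p-values measure the spread between these sections, and an exact sign permutation over 4 sections cannot go below p = 0.125.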

Additional observations from a re-analysis of the deposited data

Results flagged for a closer look

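The groups hold 2 mice each, so a mouse far from the others could not be told within a group. Iglc2 was listed because AT2 rich spots were below other spots in both NV mice and above them in both V mice, and the interaction of 1.80 did not pass the adjusted threshold in edgeR. Its reads may be shared with other light chain genes.

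Of 19 genes named by rule for V against NV in AT2 rich spots, 4 (21.1%) had V above NV in one sex and below in the other, as had 50.6% of the 10505 genes tested. Cyp2f2 was higher in the V female than the NV female by 2.89 on the log2 scale and lower in the V male than the NV male. Fmo2 had -0.077 in females and Hbb-bt -0.37, both higher in the V male. Sftpb had 0.048 in females and was lower in the V male by less than that in size. With 1 mouse per sex and group these differences between sexes were not tested.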

How the results depend on the processing

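For AT2 rich against other spots the 196 higher and 706 lower genes became 107 and 333 with DESeq2 and 91 and 148 with limma. They became 47 and 182 in thinned spots, and 127 and 520 on UMIs held out from the choice. Both of these last settings held fewer UMIs and tested fewer genes. Scaling by total UMIs (chosen after seeing the data) gave 308 higher, which raised their share of calls from 21.7% to 34.5%, and no low-count filter gave 1193 lower. Within the parenchyma higher genes made up 84.3% of calls, 25 genes were lower, and without the V male (also chosen after seeing the data) 83 were higher and 16 lower. Leaving out 1 section gave 57 to 430 higher and 169 to 1190 lower genes. The lowest counts came without the V female, the highest without the V male, and omitting the NV male gave 100 and 355, the NV female 106 and 359. The cause was not tested. Of 30 higher genes named by the rule, none changed direction, and 14, Sftpa1, Sftpb, Sftpc, Lyz1, Hc, Chil1 and Lcn2 among them, stayed called in every alternative that gave a value, each section left out included. The other 16 lost their call in at least 1. The marker ratio was 1.78 within the parenchyma.

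Lum reversed within the parenchyma to 0.046 (0.057 without the V male), Des to 0.071 (0.11), mt-Nd4l to 0.086 (0.073), mt-Nd2 to 0.039 and mt-Nd3 to 0.027.

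For V against NV, 0 genes became 3 with DESeq2 and 96 without a low-count filter. Leaving out 1 mouse gave 0 to 367 genes, 132 with the V male omitted, 367 with the V female omitted, and 0 without either NV mouse. The lone V mouse is then assumed to vary like the NV mice. With sex as replicate block 0 genes were called, and within the parenchyma 0 of 10291. The sexes pair across groups only by a shared number, with a correlation of deviations of 0.077. Sftpb turned to -0.014 with limma, -0.016 at the highest 20%, -0.00739 at 5000 UMIs and -0.056 in thinned spots. With 1 mouse left out Sftpb ran from -0.12 to 0.17, Sftpc from -0.050 to 0.23, Cyp2f2 from -1.67 to 2.06 and Hbb-bt from -0.095 to 0.40.

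For the interaction, 0 genes became 1 with total UMIs, without a filter and at the highest 5%, 2 with limma, 2 in thinned spots and 1 within the parenchyma. Iglc2, Retnla, Igha and Iglc1 were the genes named by these fits. Leaving out 1 mouse gave 0 to 90 genes, 90 without the V female and 6 without the V male. At this depth 10505 genes passed the count filter for V against NV, and genes below it were not tested.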
